A study of Homo sapiens with 2 samples.

Results

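G2/M-high cells outside the mesenchymal compartment were the HepaRG cells with the most transcripts of TOP2A, MKI67 and CENPF, genes that are transcribed late in the cell cycle. Kept barcodes had 500 genes or more, 1000 UMIs or more, and no more than 25% of their UMIs from mitochondrial genes. UMIs are unique molecular identifiers, which count captured transcripts. A cell was chosen when its summed UMIs of the 3 genes, per 10000 UMIs of the cell, stood in the top 12% of its library. Cells in the top 20% by the mean of ln(1 + UMIs per 10000) of COL3A1, SPARC, LUM and PDGFRB, which mark mesenchymal cells, were left out. The choice gave 902 of 9348 kept cells, or 9.65% (exact binomial 95% interval 9.06 to 10.3%). Replicate 1 held 432 of 4454 and replicate 2 held 470 of 4894. Since the level chose the cells, their share is set by the rule and every difference below is a description with no test.

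HepaRG is an established human hepatic line that can form hepatocyte-like and biliary-like cells, and the labels call the cells hepatocytes from liver. The line is supplied terminally differentiated. The series profiled how differentiated HepaRG cultures respond to chemicals that provoke stress. Both libraries analysed here were vehicle controls: cells cultured for 7 days, given 0.1% DMSO for 24 h, dissociated, fixed, and captured in droplets, with polyadenylated RNA sequenced from its 3′ end. Both carry biological replicate number 1, so the SD over them may be technical, and no treatment was compared. The dissociation buffer held actinomycin D, which blocks transcription, and anisomycin, which blocks translation. G2/M-high cells were set against low cells (3688 cells at or below the library median of the 3-gene level, outside the same mesenchymal 20%), replication-high cells (821 cells outside that 20%, not G2/M-high, in the top 12% by UMIs of PCNA and MCM2 to MCM7) and dividing mesenchymal cells (221 cells in the top 12% by the 3-gene level that the mesenchymal rule left out).

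Cells that have copied their DNA pass through G2, condense their chromosomes, break down the nuclear envelope and build a spindle that attaches to each chromosome at its kinetochore. Cyclin B1 with CDK1, together with the polo-like and Aurora kinases, drives entry into mitosis. The anaphase-promoting complex ends mitosis by marking cyclin B1 for destruction. In adult liver, hepatocytes are mostly out of the cycle and divide after injury. Many mitotic genes are silenced early in the cycle by complexes that bind the element TTTGAA in their promoters, often with CCAAT boxes that recruit the activator NF-Y, while S-phase genes are controlled mainly through E2F sites.

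These elements could be read in the promoters of the genes that marked the cells. The windows covered 250 bases before and 50 bases after each gene's start (RefSeq, GRCh38.p14). TTTGAA, on either strand, stood in 51 of the 88 promoters found for 104 mitosis genes (58.0%), against 15.4% of 27305 promoters in all. CCAAT, on either strand, stood in 60 of those 88 (68.2%), against 35.7% of all promoters. Among 30 promoters of replication genes, 1 held TTTGAA, 20 held CCAAT, and 9 held TTTGGCGC or TTTCGCGC (30.0%), which 6 of the 88 mitosis promoters held (6.82%) and 1.18% of all promoters held. Letters that match are not shown to be bound. The 150 bases before the start are printed for 6 genes to which the results return, with TTTGAA (or its reverse complement TTCAAA) and CCAAT (or ATTGG) in capitals. PIF1 (chr15:64825648-64825797, minus strand) and PLK1 (chr16:23678739-23678888, plus strand) had the largest ratios to low cells, among the genes ranked below. CDCA8 (chr1:37692366-37692515, plus strand) has a TTTGAA and an ATTGG that overlap by 1 base. CDC20 (chr1:43358831-43358980, plus strand) and CCNB1 (chr5:69167000-69167149, plus strand) stand at the exit from and the entry into mitosis. CCNB1, like NEK2 (chr1:211675622-211675771, minus strand), had CCAAT letters with no TTTGAA in the 250 bases before its start.
PIF1: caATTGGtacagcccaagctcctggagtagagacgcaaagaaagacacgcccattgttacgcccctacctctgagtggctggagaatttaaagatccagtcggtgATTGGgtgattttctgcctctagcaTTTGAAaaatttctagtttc
PLK1: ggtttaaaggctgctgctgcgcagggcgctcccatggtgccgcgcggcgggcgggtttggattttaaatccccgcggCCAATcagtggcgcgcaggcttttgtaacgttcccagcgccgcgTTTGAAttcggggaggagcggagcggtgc
CDCA8: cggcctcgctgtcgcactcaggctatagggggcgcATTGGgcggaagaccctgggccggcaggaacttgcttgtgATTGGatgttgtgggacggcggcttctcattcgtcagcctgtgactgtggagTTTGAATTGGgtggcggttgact
CDC20: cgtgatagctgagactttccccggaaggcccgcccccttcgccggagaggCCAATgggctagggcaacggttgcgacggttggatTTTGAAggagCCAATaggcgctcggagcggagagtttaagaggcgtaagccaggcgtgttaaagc
CCNB1: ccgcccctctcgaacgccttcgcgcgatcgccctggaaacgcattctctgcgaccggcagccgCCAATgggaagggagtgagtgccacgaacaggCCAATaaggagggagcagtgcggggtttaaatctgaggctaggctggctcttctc
NEK2: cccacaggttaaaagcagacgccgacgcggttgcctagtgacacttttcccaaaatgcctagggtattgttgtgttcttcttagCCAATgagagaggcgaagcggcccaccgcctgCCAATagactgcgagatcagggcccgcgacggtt

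The chosen cells had a median 3-gene level of 37.0 per 10000 UMIs in both libraries, where the median of all kept cells was 3.17 in replicate 1 and 3.51 in replicate 2. The cutoff lay at 27.0 in both libraries, in a continuous range of levels. The lowest chosen cell had 26.998 and the highest cell left out 26.959 in replicate 1, and in replicate 2 these were 27.029 and 27.007. Within 10% of the cutoff stood 73 and 77 chosen cells in replicates 1 and 2, and 76 and 87 cells just outside. By the 3 genes of the rule, TOP2A, the topoisomerase that untangles sister chromatids, was at 1706 and 1660 CPM in G2/M-high cells and 28.3 and 28.4 CPM in low cells. CPM are a gene's UMIs per 1000000 UMIs, after summing all cells of a group in a library. The proliferation antigen MKI67 was at 814 and 780.4 CPM in G2/M-high cells and 15.6 and 14.8 CPM in low cells, and the kinetochore protein CENPF at 1443 and 1441 CPM against 35.4 and 36.2 CPM.

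**Figure D1:**
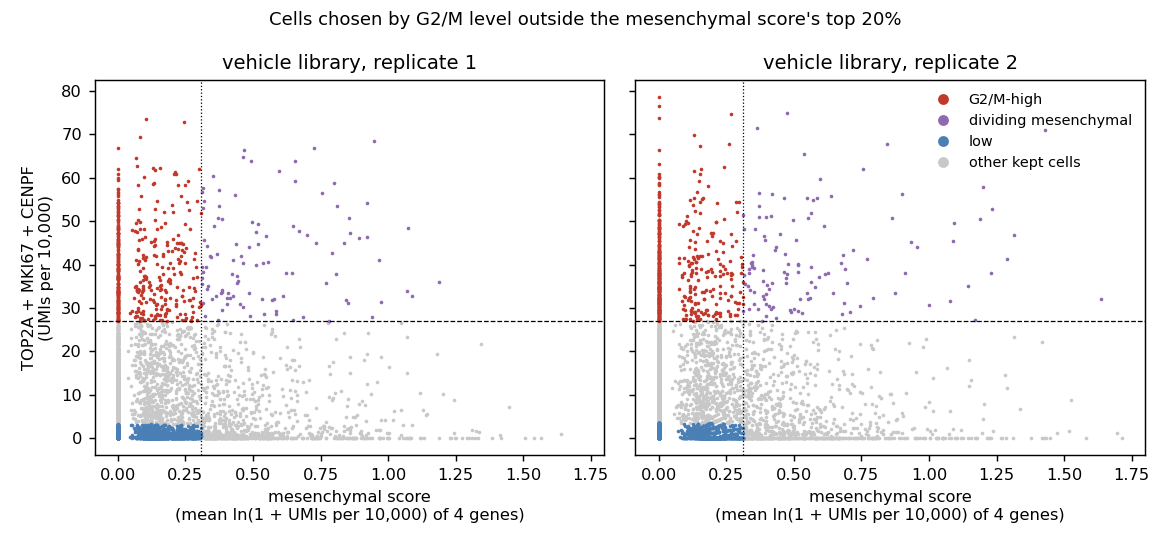
Each point is a kept cell, with its mesenchymal score on the x axis (mean of ln(1 + UMIs per 10,000) of 4 genes) and its TOP2A, MKI67 and CENPF UMIs per 10,000 on the y axis, 1 panel per library; dashed lines mark the cutoff of 27.0 and dotted lines the mesenchymal cutoffs of 0.309 and 0.312. G2/M-high cells lie above the dashed and left of the dotted line, and the cloud of cells runs through the cutoff without a gap.

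The libraries held 85475317 and 57246647 UMIs in 4591 and 4998 barcodes, of which 137 and 104 failed the filters. The G2/M-high cells were deeper than the low cells, with median UMIs of 25016 and 13878 in replicates 1 and 2 against 16556 and 9683, and had lower median mitochondrial shares, 7.87% and 8.13% against 10.1% and 10.5%. The libraries shared 7 barcodes, 3 of which involved a G2/M-high cell. Of 12 antibody features in the tables, 0 UMIs were recorded in either library. Immune markers summed to 9.44 and 9.52 CPM in G2/M-high and 11.1 and 9.99 CPM in low cells, and endothelial markers to 11.8 and 11.6 CPM against 40.8 and 36.9 CPM. The lists' defining genes PTPRC and VWF were at or near 0 in every group.

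The kinases AURKB and TTK were not used by the rule. They were measured in the same cells that the rule chose, so their values describe the cells and do not test the label. AURKB, the kinase of the chromosomal passenger complex, was at 107 and 99.3 CPM in G2/M-high cells, against 40.2 and 42.1 CPM in replication-high cells and 2.21 and 2.78 CPM in low cells. TTK, which starts the spindle checkpoint, was at 114.5 and 114.7 CPM in G2/M-high cells, against 29.5 and 26.3 CPM in replication-high and 3.80 and 4.24 CPM in low cells. Neither gene's values overlapped between the groups named here. Whether the level of 3 genes also spans more than G2 and mitosis was not tested, and histone values are given below. The cells are called G2/M-high by their rule. When each cell was thinned to 4000 UMIs, AURKB had a UMI in 30.5% and 32.3% of G2/M-high cells of replicates 1 and 2, against 0.639% and 1.05% of low cells, and TTK in 39.0% and 34.0% against 1.16% and 1.31%. In dividing mesenchymal cells the thinned shares were 28.7% and 46.6% for AURKB and 34.7% and 41.5% for TTK. Neither kinase's share thus differed in the same direction in both libraries between G2/M-high and dividing mesenchymal cells. For AURKB in replicate 2 the exact intervals did not overlap, at 28.1 to 36.8% in G2/M-high and 37.4 to 56.0% in dividing mesenchymal cells. Before thinning the shares were 85.0% and 70.0% for AURKB and 87.5% and 74.3% for TTK in G2/M-high cells, against 3.44% and 2.73% and 5.85% and 4.17% in low cells. The shares in low cells are also the most that free RNA of these genes could give there.

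The first comparison asked what distinguished G2/M-high cells from cells with few G2/M transcripts. A gene was counted when it differed by at least 1.5-fold in the same direction in both libraries, on the scale of log2((CPM + 1)/(CPM + 1)), among genes with a mean of at least 5 CPM over all kept cells. Of 12011 genes, 1044 were higher (8.69%) and 1284 lower (10.7%) in G2/M-high cells. The contrast is the one the rule used, so nothing is read from these shares. The lists that cover mitosis from entry to exit, without the nuclear envelope list given below, held 104 genes. Of these, 102 were measured above the minimum, 98 were higher and 0 lower, with a median log2 ratio of 3.72, against -0.02 over all genes. Together those genes held 24821 and 24511 CPM in G2/M-high cells and 3535 and 3712 CPM in low cells.

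Mitotic entry genes were higher in 15 of 15 cases, with a median log2 ratio of 3.28. CCNB1, the mitotic cyclin, was at 480.5 and 492 CPM in G2/M-high cells, against 15.3 and 18.03 CPM in low cells (log2 ratio 4.79 ± 0.13, SD, n = 2). Its partner kinase CDK1 was at 259 and 255 CPM, against 8.02 and 8.87 CPM in low cells. PLK1, the polo-like kinase that triggers spindle assembly and mitotic entry, was at 170.2 and 179 CPM in G2/M-high cells, against 1.82 and 2.44 CPM in low cells, 56.4-fold higher. Cyclin A2 (CCNA2), which acts in both S phase and G2, stood at 216 and 226 CPM against 5.58 and 7.36 CPM. The CDK-binding subunits CKS2, at 528 and 541 CPM against 50.8 and 58.1 CPM, and CKS1B had smaller log2 ratios of 3.28 and 2.65.

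Genes that shape and hold chromosomes followed. All 12 condensation genes were higher (median log2 ratio 2.58), among them the condensin subunits SMC4, at 630.1 and 615 CPM in G2/M-high cells and 92.7 and 98.5 CPM in low cells, and NCAPG (log2 ratio 4.58 ± 0.26). Of 18 centromere and kinetochore genes, 17 were higher. NDC80, which binds microtubules at the kinetochore, was at 203 and 204 CPM in G2/M-high cells, against 3.08 and 3.41 CPM in low cells. CENPA, the histone H3 variant that marks centromeres, was at 191 and 203 CPM against 7.86 and 7.55 CPM. DSN1, a subunit of the MIS12 kinetochore complex, was the exception, at 26.5 and 25.1 CPM in G2/M-high cells and 22.8 and 23.6 CPM in low cells.

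The 12 genes of the spindle checkpoint and the chromosomal passenger complex were all higher, with a median log2 ratio of 4.02. SGO2, which protects centromeric cohesion, was at 302 and 288 CPM in G2/M-high cells and 18.4 and 17.6 CPM in low cells. The passenger subunits CDCA8 and BIRC5 had log2 ratios of 5.00 ± 0.19 and 3.06 ± 0.06. Spindle genes were higher in 26 of 26 cases (median 4.00), with TPX2, the activator of Aurora A, at 699 and 663 CPM against 24.8 and 27.8 CPM. The tubulin TUBA1B, which all cells use and whose near-identical copies can share reads, had a smaller log2 ratio of 1.42 ± 0.01. Cytokinesis genes were higher in 10 of 10 cases (median 4.13), with ANLN, a scaffold of the contractile ring, at 639.9 and 597 CPM in G2/M-high cells against 34.2 and 35.6 CPM in low cells.

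Among genes of mitotic exit, 7 of 10 were higher. CDC20, the activator of the anaphase-promoting complex, was at 219 and 217 CPM in G2/M-high cells and 10.9 and 9.74 CPM in low cells. The complex's ubiquitin-conjugating enzyme UBE2S and its substrate PTTG1 (securin) had log2 ratios of 3.50 ± 0.06 and 2.17 ± 0.01. The complex's own subunits ANAPC1, ANAPC11 and CDC16 were neither higher nor lower by the fold. For the nuclear envelope 4 of 7 were higher, with LMNB1, a B-type lamin, at 123 and 119 CPM against 16.6 and 20.9 CPM, while the A-type lamin LMNA stood at 669 and 656 CPM in G2/M-high cells against 536 and 530.2 CPM in low cells.

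The 12 genes with the largest ratios, among those with at least 20 CPM in the higher group, were PIF1, PLK1, KIF14, NDC80, KIF2C, NEK2, CENPE, APOLD1, CDCA8, CDC25C, CCNA2 and AURKB, and 10 of the 12 were in the mitosis lists. PIF1, a DNA helicase, was at 99.9 and 95.5 CPM in G2/M-high cells and 0.39 and 0.34 CPM in low cells, from 12 and 7 UMIs in the low cells of the libraries. In the 250 bases before the start, 4 of these 12 promoters held TTTGAA and 8 held CCAAT, and the 4 (PIF1, PLK1, APOLD1 and CDCA8) held both. The 50 bases after the start, which the list shares given earlier included, were not searched for these 12. NEK2, a centrosome kinase whose printed promoter has only CCAAT letters, was at 115 and 102 CPM in G2/M-high cells and 1.98 and 2.34 CPM in low cells.

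**Figure D2:**
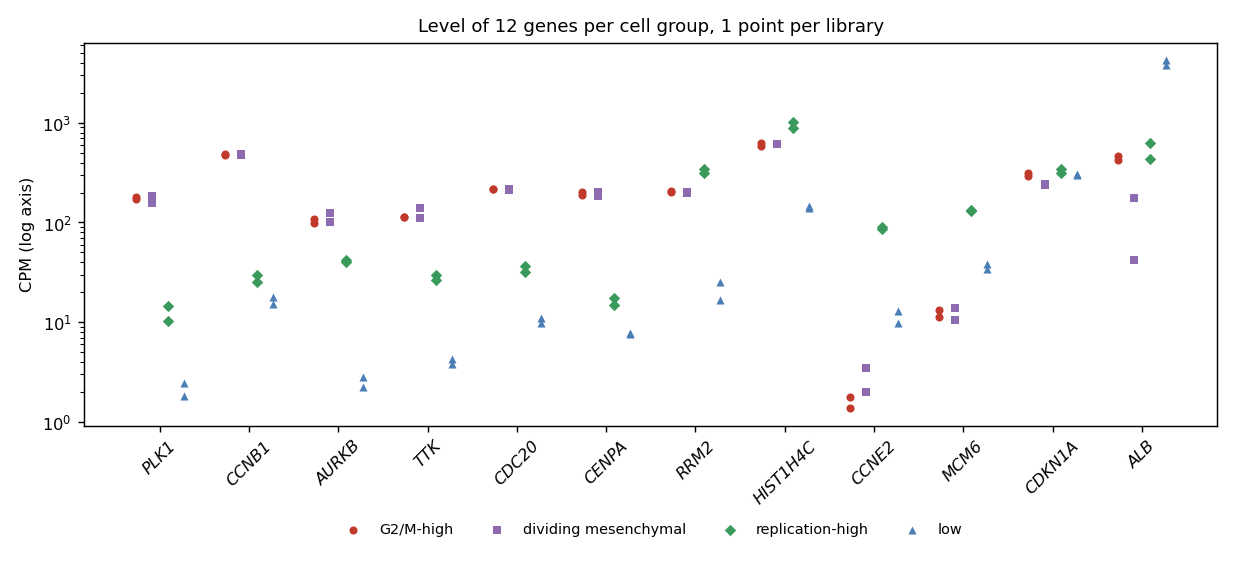
The y axis gives CPM on a log axis for 12 genes, with 1 point per library for G2/M-high, dividing mesenchymal, replication-high and low cells, left to right within a gene. PLK1, CCNB1, AURKB, TTK, CDC20 and CENPA are highest in the G2/M-high and dividing mesenchymal cells, CCNE2 and MCM6 are highest in replication-high cells, and CDKN1A differs little between G2/M-high (316 and 295 CPM) and low cells (302 and 306 CPM).

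Genes of DNA replication split. Of 34 measured, 9 were higher, 9 lower and 16 neither in G2/M-high cells, with a median log2 ratio of -0.19. The nucleotide-supply enzymes were among the higher ones. RRM2, the regulated subunit of ribonucleotide reductase, was at 205 and 204 CPM in G2/M-high cells and 16.7 and 25.3 CPM in low cells, and the thymidylate synthase TYMS at 432 and 423 CPM against 164 and 172 CPM. Genes that license and start replication were among the lower ones, such as the helicase subunits MCM3 (log2 ratio -0.99 ± 0.05) and MCM6, at 13.2 and 11.3 CPM against 34.0 and 38.4 CPM. The uracil-DNA glycosylase UNG, at 3.18 and 3.32 CPM in G2/M-high cells, was at 21.8 and 23.9 CPM in low cells. The low cells included 80 and 126 of the replication-high cells of replicates 1 and 2.

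Clustered histone genes, which are transcribed while DNA is copied, were higher in 12 of the 14 measured (24 listed), with a median log2 ratio of 1.78. HIST1H4C, a histone H4 gene, was at 635 and 582 CPM in G2/M-high cells and 141 and 148 CPM in low cells. HIST1H1B, a linker histone, was at 54.3 and 43.8 CPM against 0.81 and 1.90 CPM. Most clustered histone mRNAs lack a poly(A) tail and their copies are alike, so poly(A) capture measures them incompletely and reads can be split between copies. Replacement histones and their chaperones were higher in 8 of 11 cases, with H2AFX, the histone that is phosphorylated at DNA breaks, at 153 and 146 CPM against 11.8 and 13.6 CPM.

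CDK inhibitors were listed together with genes that drive the cycle, such as D cyclins and CDK6, and the list was mixed. Of 17 CDK inhibitors, D cyclins and related genes, 6 were higher and 1 lower, the G1 kinase CDK6 (log2 ratio -0.63 ± 0.06), a call that was lost under 6 alternatives. CDKN1A, which encodes the p53-induced inhibitor p21, was at 316 and 295 CPM in G2/M-high cells and 302 and 306 CPM in low cells, and the values overlapped. CDKN3, a phosphatase that acts on CDKs, was at 266 and 259 CPM against 42.7 and 46.5 CPM. CDKN1B, the inhibitor p27, was at 34.6 and 31.3 CPM against 12.5 and 12.3 CPM, and the unconventional cyclin CCNG2 at 30.6 and 33.4 CPM against 7.99 and 7.60 CPM. Of 25 p53 targets 4 were higher and 0 lower: the translesion polymerase POLH (log2 ratio 1.51 ± 0.02), TP53I3, SESN2 and the death receptor FAS. This count was 2 when cells were thinned to 4000 UMIs, and 2 when genes were measured on other UMIs than those that chose the cells. At a 2-fold threshold it was 1. Over all genes 8.69% were higher at 1.5-fold, and no p53 difference is read from this count. DNA repair genes of S phase and G2 were higher in 9 of 16 cases, among them FANCI, BRCA2 and BARD1 at log2 ratios of 1.69, 1.48 and 1.29.

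Hepatocyte genes were lower in 17 of the 17 measured (25 listed), with a median log2 ratio of -2.87, and summed to 1304 and 1254 CPM in G2/M-high cells against 7743 and 8560 CPM in low cells. Albumin (ALB) was at 467 and 425 CPM in G2/M-high cells and 3815 and 4272 CPM in low cells. The iron carrier transferrin (TF) was at 9.90 and 15.3 CPM against 229.6 and 256 CPM. The haemoglobin-binding protein haptoglobin (HP) was at 43.5 and 36.0 CPM against 454 and 559 CPM. The drug-metabolising CYP3A5, at 19.2 and 18.9 CPM in G2/M-high cells, was at 135 and 131 CPM in low cells. Among the 12 genes with the smallest ratios were TF, HP, the bile acid receptor NR1H4 and the sulfotransferase SULT2A1. ADRA1A (log2 ratio -3.84) and ADCY8 (-3.13), which are not in the hepatocyte list, were also among them.

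Much of the albumin in each group lay in few cells. In the top 10% of each library by ALB per 10000 UMIs stood 21 of 432 G2/M-high cells of replicate 1 (4.86%, exact interval 3.03 to 7.33%) and 17 of 470 of replicate 2 (3.62%, 2.12 to 5.73%), against 18.005% and 18.3% of low cells. The median G2/M-high cell had 0.404 and 0.406 ALB UMIs per 10000, the median low cell 0.696 and 0.997, and the highest G2/M-high cells 138 and 360. At 4000 UMIs per cell, ALB had a UMI in 26.1% and 27.2% of G2/M-high cells, against 17.8% and 16.9% of dividing mesenchymal cells and 41.4% and 44.5% of low cells. With the albumin-high cells left out of both groups, a choice made after seeing the data, 9 of the 17 hepatocyte genes remained lower by the fold. ALB was then at 97.3 and 136 CPM in G2/M-high cells and 195 and 313 CPM in low cells. The fibrinogen chain FGG kept a log2 ratio of -2.42, at 29.2 and 36.8 CPM against 166 and 195 CPM, and CYP3A5 one of -2.04. Outside the hepatocyte list, ADRA1A and ADCY8 kept log2 ratios of -3.30 and -3.14, while NR1H4 moved to -1.76 and SULT2A1 to -0.85. TF, at 3.06 and 3.59 CPM against 5.06 and 6.31 CPM, no longer passed in both libraries, and the apolipoproteins APOC3, at -0.04, and APOA1, at 0.03, were not lower, where APOA1 had been at -2.99 with all cells.

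**Figure D3:**
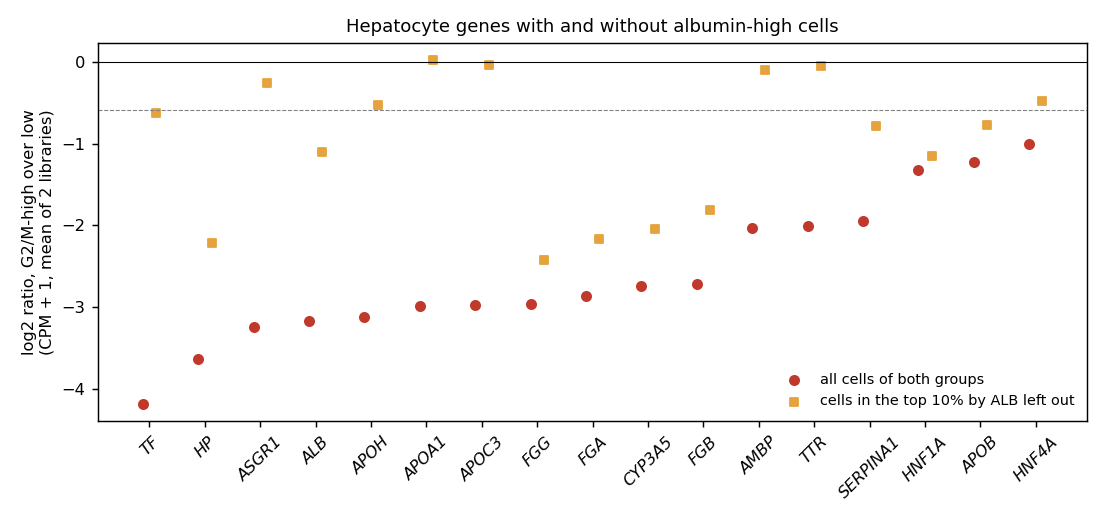
Log2 ratios of G2/M-high over low cells (axis on the log2((CPM + 1)/(CPM + 1)) scale) for the 17 measured hepatocyte genes, with all cells and with the top 10% of cells by ALB left out; the dashed line marks 1.5-fold. ALB moves to -1.10 and APOA1 to 0.03 while FGG stays at -2.42.

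The keratins of the biliary and progenitor list were also lower, KRT19 at 380.1 and 345 CPM in G2/M-high cells against 602 and 618 CPM in low cells, and KRT18 at 255 and 252 CPM against 461 and 479 CPM. With SPP1 and SOX9 they made 4 lower of 6, and 1 was lower at a 2-fold threshold. Of 8 genes that lead clusters of resting cells, a list drawn from these same data, 4 were lower, among them the chemokine CXCL13 (log2 ratio -1.78) and the potassium channel KCNJ16 (-2.06). With only replicate 1, 7 of the 8 were lower. Of 7 mesenchymal genes outside the rule, the matrix genes COL1A1 (8.13 and 8.31 CPM against 2.66 and 3.95 CPM) and POSTN (432 and 421 CPM against 259 and 262 CPM) were higher and DCN was lower. With a pseudocount of 5 CPM, or with albumin-high cells left out, 1 of the mesenchymal genes was higher. At a 2-fold threshold 0 were higher and 0 lower. The mesenchymal list summed to 1297 and 1258 CPM in G2/M-high cells and 1164 and 1145 CPM in low cells, and its part in the other differences was not tested. The endothelial receptor KDR was at 7.29 and 8.16 CPM in G2/M-high cells against 36.6 and 33.2 CPM.

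Stress pathways, the subject of the series, were read at this vehicle baseline, beside 8.69% of all genes higher and 10.7% lower. In the integrated stress response 7 of 15 genes were higher and 0 lower, with the transcription factor ATF4 at 141 and 151 CPM in G2/M-high cells against 66.8 and 70.6 CPM in low cells. Its targets in serine synthesis, PSAT1, at 166 and 179 CPM against 67.9 and 74.3 CPM, and PHGDH (log2 ratio 0.81 ± 0.05), and in cystine uptake, SLC7A11 (1.14 ± 0.13), were among the 7. The pro-apoptotic factor DDIT3, at 16.4 and 17.7 CPM against 23.5 and 23.05 CPM, was not. In the heat-shock response 7 of 18 were higher, including the chaperones HSPA1A, at 68.4 and 68.2 CPM against 29.1 and 29.2 CPM, and HSP90AA1, at 1279.8 and 1272 CPM against 781 and 792 CPM. HSPA1A and HSPA1B are near-identical copies, and reads could be split between them. At a 2-fold threshold 3 of the integrated stress response genes and 1 of the heat-shock genes were higher.

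Other stress lists showed few or opposite differences, beside the same shares over all genes. In the unfolded protein response 1 of 20 genes was lower, the co-chaperone DNAJB9 (log2 ratio -1.06 ± 0.04), and 0 were higher. With albumin-high cells left out 0 were lower, and with only replicate 2 there were 2. Of 19 NRF2 targets, SLC7A11 was higher and the glutathione-synthesis subunit GCLC lower. In the hypoxia list 4 of 18 were lower and 0 higher, with the carbonic anhydrase CA9 at 5.05 and 5.59 CPM in G2/M-high cells against 15.4 and 19.4 CPM in low cells. With albumin-high cells left out 2 of the 18 were lower, the log2 ratio of CA9 was -0.94, and that of NDRG1 was -0.57 in place of -1.19. Cholesterol and fatty acid synthesis had 9 of 20 lower and 0 higher, with the synthase HMGCS1 at 65.1 and 60.3 CPM against 147 and 157 CPM and the desaturase SCD at 90.5 and 95.5 CPM against 216 and 225 CPM. At a 2-fold threshold 3 of these 20 genes were lower, and 2 of the hypoxia genes. Of 12 immediate early genes, KLF6 was higher, at 89.8 and 96.3 CPM against 42.2 and 43.4 CPM, and MYC lower (-0.72 ± 0.01). The count of lower genes was 6 with only replicate 2 and 4 when the top 8% of cells were chosen. None of the 81 ribosomal protein genes and 13 mitochondrially encoded genes passed the fold, the mitochondrial ones with a median log2 ratio of -0.31. Of 16 nuclear transport and RNA-binding genes 10 were higher, led in ratio by the importin KPNA2, at 455 and 454 CPM against 39.3 and 41.0 CPM.

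**Figure D4:**
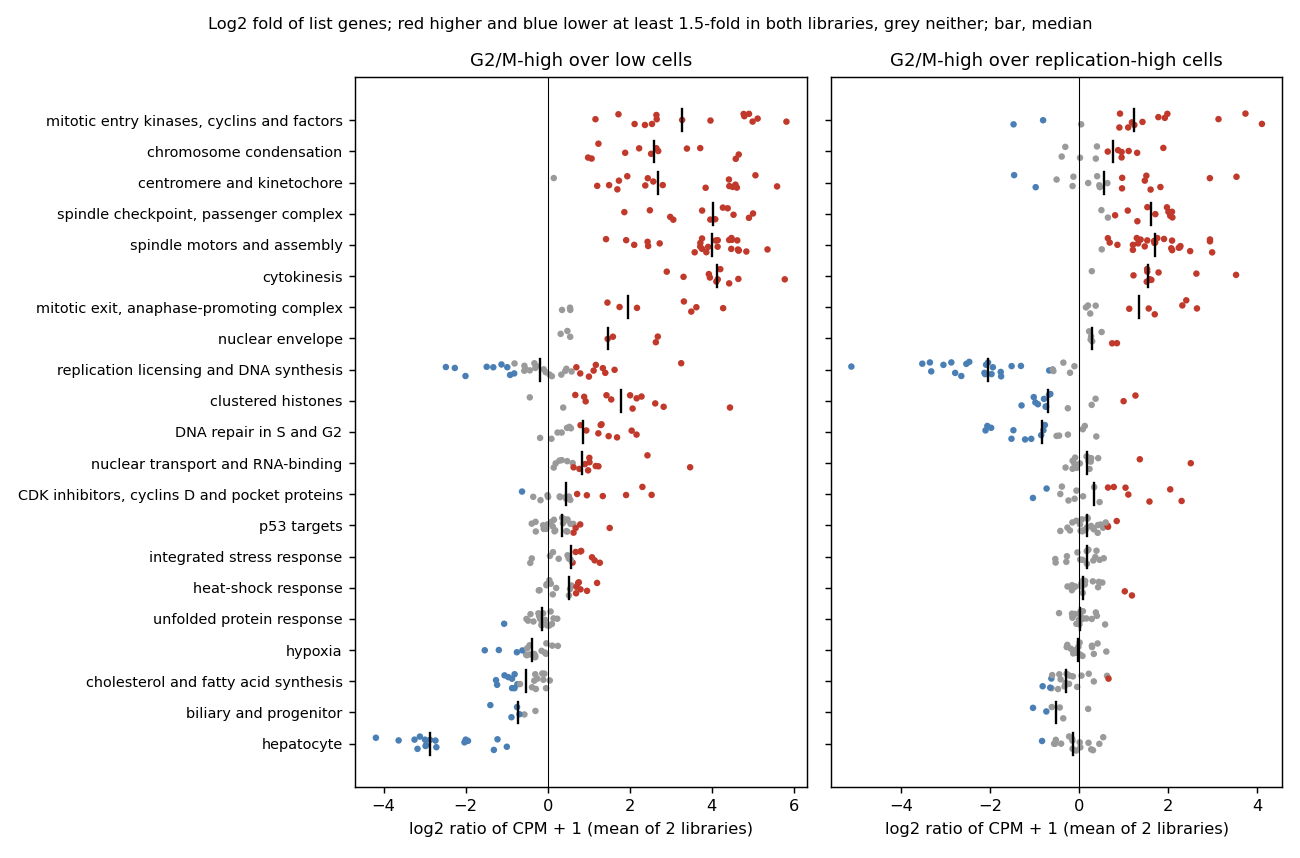
Each point is a gene's log2 ratio on the log2((CPM + 1)/(CPM + 1)) scale, for 21 gene lists, over low cells (left panel) and over replication-high cells (right panel); red and blue points passed 1.5-fold in both libraries, grey points did not, and bars are list medians. Over low cells the mitosis lists and the nuclear envelope list lie right of 0, and the hepatocyte list lies left at a median of -2.87. Over replication-high cells the replication list lies left at -2.05.

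The second comparison asked how G2/M-high cells differed from other cycling cells, those rich in replication transcripts. G2/M-high and replication-high cells were chosen on different genes, and 10 G2/M-high cells of each library (2.31% and 2.13%) were also in the top 12% by replication genes. Of 12004 genes 655 were higher (5.46%) and 921 lower (7.67%) in G2/M-high cells. Both groups were chosen by their transcripts, so these shares too are only described. Of the 102 mitosis genes 76 were higher and 4 lower (median log2 ratio 1.35), summing to 24821 and 24511 CPM in G2/M-high cells and 10492 and 10411 CPM in replication-high cells.

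CCNB1 was at 480.5 and 492 CPM in G2/M-high cells, against 25.2 and 29.6 CPM in replication-high cells, 17.2-fold higher by CPM + 1. In contrast, its kinase CDK1 was at 107 and 110 CPM in replication-high cells, a log2 ratio of 1.24 ± 0.04. PLK1, at 10.2 and 14.5 CPM in replication-high cells, had a log2 ratio of 3.73 ± 0.28. PIF1 had 5 and 20 UMIs in all replication-high cells of replicates 1 and 2, and a log2 ratio of 5.16 ± 1.12. Among the 12 with the largest ratios 9 were in the mitosis lists. They included the cytokinetic kinesin KIF20A, at 96.0 and 95.7 CPM in G2/M-high cells against 8.08 and 6.79 CPM, CENPA, at 14.7 and 17.6 CPM in replication-high cells, and DLGAP5, which stabilises spindle fibres, at 376 and 358 CPM against 45.6 and 45.2 CPM. TNFAIP8L1, in none of the lists, was at 49.3 and 48.7 CPM in G2/M-high cells and 2.49 and 4.22 CPM in replication-high cells.

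The checkpoint list had 10 of 12 higher and the spindle list 25 of 26. Condensation genes had 7 of 12 higher with a smaller median of 0.76, and HMGB1, an abundant chromatin protein, stood at 1210.3 and 1255 CPM against 958 and 946 CPM. The 4 mitosis genes that were lower were the transcription factor MYBL2 (log2 ratio -0.81 ± 0.09), the CDK1-inhibiting kinase PKMYT1 (-1.48 ± 0.05), and the kinetochore subunits CENPU (-0.98 ± 0.04) and DSN1, at 26.5 and 25.1 CPM in G2/M-high cells against 73.4 and 72.4 CPM. DSN1 was thus measured at a like level in G2/M-high and low cells and at a higher one in replication-high cells.

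Replication genes other than the 7 of the replication rule were lower in 22 of 27 cases and higher in 0, with a median log2 ratio of -2.05. Cyclin E2 (CCNE2), which acts at the entry into S phase, was at 1.78 and 1.36 CPM in G2/M-high cells, against 90.3 and 85.8 CPM in replication-high cells. The licensing factor CDC6 was at 5.79 and 5.89 CPM against 68.6 and 69.4 CPM, the S-phase protein FAM111B at 10.2 and 11.0 CPM against 198 and 179 CPM, and SLBP, the protein that binds histone mRNA ends, at 19.5 and 19.8 CPM against 134 and 123 CPM. RRM2 was lower by less, at 205 and 204 CPM in G2/M-high cells against 343 and 311 CPM, and TYMS did not differ by the fold, at 432 and 423 CPM against 463 and 459 CPM. At 4000 UMIs per cell CCNE2 had a UMI in 0.939% and 0.857% of G2/M-high cells, against 27.9% and 33.5% of replication-high and 3.25% and 4.77% of low cells. Repair genes were lower in 10 of 16 cases, among them BRCA1 (log2 ratio -1.48 ± 0.12) and the exonuclease EXO1 (-2.06 ± 0.10).

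Clustered histones were lower in 9 of 14 cases and higher in 2, HIST1H2BJ and HIST1H2BN. HIST1H4C was at 635 and 582 CPM in G2/M-high cells against 1013 and 898 CPM in replication-high cells. CDK inhibitors and related genes were higher in 7 of 17 cases, with CDKN3 (log2 ratio 2.30 ± 0.14), CCNG2 (2.04 ± 0.09), CDKN2B (1.58 ± 0.02) and CDKN1B (1.04 ± 0.27), and lower for RBL1 and CDK2. In the integrated stress response list 0 of 15 genes were higher and 0 lower, with ATF4 at 109 and 103 CPM in replication-high cells. HSPA1A, at 28.8 and 30.1 CPM there, and HSPA1B were the 2 of 18 heat-shock genes that were higher in G2/M-high cells. Of the hepatocyte genes 1 of 17 was lower, FGG, and the list summed to 1304 and 1254 CPM in G2/M-high cells and 1674 and 1326 CPM in replication-high cells. KRT19 was lower, at 380.1 and 345 CPM against 724 and 767 CPM in replication-high cells.

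The third comparison set G2/M-high cells against the dividing mesenchymal cells that the same 3-gene level would have taken. None of the 102 mitosis genes passed the fold, their log2 ratios ran from -0.37 to 0.29, and they summed to 24821 and 24511 CPM in G2/M-high cells and 25823 and 25950 CPM in dividing mesenchymal cells. CCNB1 was at 480.5 and 492 CPM against 486 and 473 CPM, and PLK1 at 170.2 and 179 CPM against 156 and 186 CPM, with overlapping values. Of 12011 genes 244 were higher (2.03%) and 253 lower (2.11%). The dividing mesenchymal cells numbered 103 and 118, so single genes rest on few UMIs, and with only replicate 2 the counts were 751 and 654, with only replicate 1 620.0 and 553.

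Hepatocyte genes were higher in 11 of 17 cases in G2/M-high cells, summing to 1304 and 1254 CPM against 458 and 712 CPM in dividing mesenchymal cells. ALB was at 467 and 425 CPM in G2/M-high cells and 42.0 and 175 CPM in dividing mesenchymal cells, a log2 ratio of 2.36 ± 1.53 whose size differed between libraries. The fibrinogen chain FGB, at 79.8 and 83.1 CPM against 5.20 and 29.7 CPM, varied in the same way. TENM1, a teneurin cell-surface protein, was at 86.6 and 83.4 CPM against 16.5 and 6.603 CPM. It had the largest ratio among genes with at least 20 CPM in the higher group. SPP1, a secreted matrix protein found in biliary cells, had 13.5 and 8.31 CPM in G2/M-high cells and 0.43 and 0 CPM in dividing mesenchymal cells.

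The genes of the mesenchymal rule separated the groups by choice, COL3A1 at 1.31 and 3.32 CPM against 91.9 and 131 CPM. Mesenchymal genes outside the rule were lower for DCN, a matrix proteoglycan, at 18.03 and 18.9 CPM against 76.7 and 112 CPM, and for POSTN, at 432 and 421 CPM against 838 and 869 CPM, and higher for the smooth-muscle gene TAGLN (1.19 ± 0.62). DPT, which encodes the matrix protein dermatopontin, was at 1.49 and 1.51 CPM against 26.4 and 40.9 CPM. It had the smallest ratio among genes outside the rule with at least 20 CPM in the higher group. The ER chaperone HSPA5 was the 1 of 20 unfolded protein response genes that was lower, at 288.5 and 289 CPM in G2/M-high cells against 464 and 573 CPM in dividing mesenchymal cells. KRT19 was lower too, at 380.1 and 345 CPM against 603 and 568 CPM. Replication genes passed for 1 gene only, MCM10, and clustered histones for HIST1H2BJ.

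Within the G2/M-high cells the level of CCNB1 varied. The median cell had 4.59 and 4.83 CCNB1 UMIs per 10000 in replicates 1 and 2, the 10th and 90th percentiles were 1.38 and 8.39 in replicate 1 and 1.32 and 8.87 in replicate 2, and 2.08% and 2.34% of cells had none. HIST1H4C had medians of 2.99 and 3.00 per 10000 and 90th percentiles of 19.5 and 17.3. Across cells, HIST1H4C and CCNB1 had Spearman correlations of -0.67 (432 cells) and -0.59 (470 cells) in replicates 1 and 2, and of -0.41 and -0.37 when cells were thinned to 4000 UMIs. The cells of a library share its preparation, and both genes are scaled by the same cell total. CCNB1 had correlations of -0.03 and -0.02 with a cell's total UMIs, and HIST1H4C of 0.06 and 0.11. Other histones ran the same way as HIST1H4C, such as HIST1H1E at -0.55 and -0.50 (-0.28 and -0.27 thinned). ARL6IP1, at 0.65 and 0.57, had 0.26 and 0.29 after thinning, and CDC20, at 0.50 and 0.40, had 0.16 and 0.16. AURKB (-0.01 and 0.08) and CDK1 (-0.03 and 0.02) had values near 0.

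Part of the G2/M-high cells carried as much HIST1H4C mRNA as the median replication-high cell. The median replication-high cell had 6.95 and 5.99 HIST1H4C UMIs per 10000 in replicates 1 and 2. Among G2/M-high cells 124 of 432 (28.7%, exact interval 24.5 to 33.2%) and 141 of 470 (30.0%, 25.9 to 34.4%) were at or above it, against 0.287% and 2.01% of low cells. The median CCNB1 level was 2.40 and 2.23 per 10000 in those G2/M-high cells and 5.64 and 5.77 in the other G2/M-high cells.

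**Figure D5:**
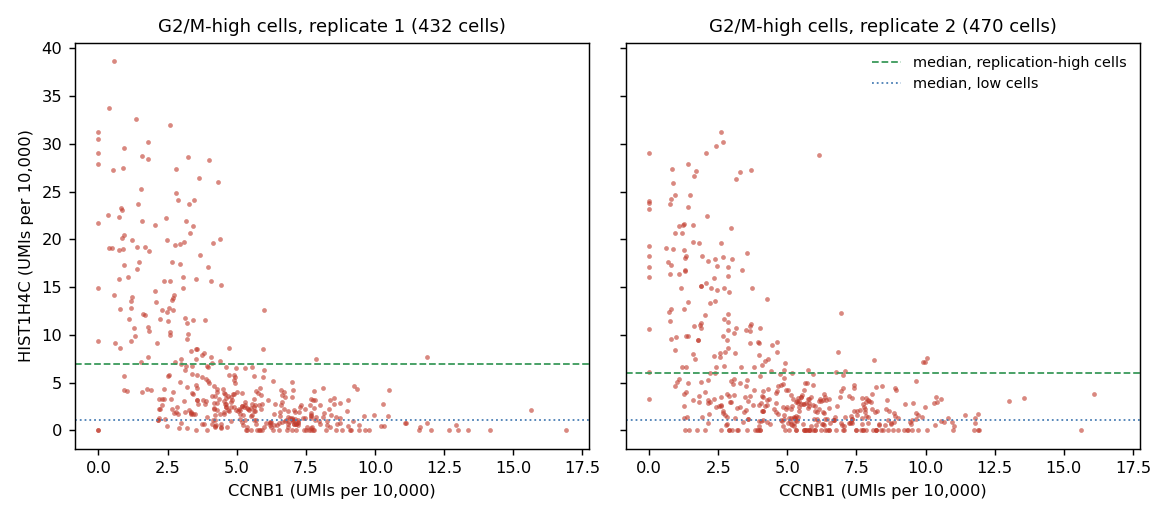
Each point is a G2/M-high cell, with its CCNB1 UMIs per 10,000 on the x axis and its HIST1H4C UMIs per 10,000 on the y axis, 1 panel per library; lines mark the median HIST1H4C level of replication-high cells (6.95 and 5.99, dashed) and of low cells (1.11 and 1.06, dotted). Cells with high HIST1H4C lie mostly at low CCNB1, and 28.7% and 30.0% of cells lie at or above the dashed line.

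After these values were seen, the G2/M-high cells of each library were split at their median CCNB1 level, into an upper part of 216 and 235 cells and a lower part of the same size. The upper part had CCNB1 at 688 and 724 CPM and the lower part at 278 and 264 CPM, which the split sets. Of 12010 genes 43 were higher (0.358%) and 275 lower (2.29%) in the upper part. The split also moved the level that chose the cells, with medians of 41.5 and 40.3 per 10000 in the upper part and 34.2 and 33.4 in the lower part, while median UMIs were 25769 and 13593 against 24101 and 14086. With only replicate 2 the counts were 298 and 691, and with only replicate 1 210.0 and 680.0.

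Clustered histones were lower in 10 of 14 cases in the upper part and summed to 416 and 405 CPM, against 1982 and 1735 CPM in the lower part. HIST1H4C was at 221 and 224 CPM against 1039 and 935 CPM (log2 ratio -2.14 ± 0.12). HIST1H1B was at 5.68 and 5.79 CPM in the upper part and 102 and 81.2 CPM in the lower part. Replacement histones had 0 of 11 past the fold, with H2AFX at 146 and 135 CPM against 160.2 and 157 CPM. Replication genes were lower in 15 of 34 cases and higher in 0. MCM6 was at 4.16 and 5.18 CPM in the upper part and 21.96 and 17.4 CPM in the lower part, and RRM2 at 138 and 159 CPM against 270.4 and 248 CPM.

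Of 101 mitosis genes 8 were higher and 2 lower in the upper part. The higher ones were the kinases PLK1 (log2 ratio 0.63 ± 0.05), NEK2 (0.86 ± 0.06) and AURKA (0.70 ± 0.04), the kinesin KIF20A (0.72 ± 0.07), ARL6IP1 (0.84 ± 0.03), and 3 genes of mitotic exit. These 3 were CDC20, at 275 and 270.0 CPM in the upper part against 164 and 164 CPM, UBE2S and PTTG1. DSN1 and FBXO5, an inhibitor of the anaphase-promoting complex that acts from S phase to early mitosis, were lower, FBXO5 at 64.1 and 57.3 CPM against 101 and 96.5 CPM. CDKN3 and KPNA2 were higher as well, at log2 ratios of 0.69 ± 0.08 and 0.67 ± 0.01. The immediate early genes JUN, at 18.2 and 16.1 CPM in the upper part against 38.2 and 33.6 CPM, and KLF6 were lower, as was the epidermal growth factor receptor ligand AREG, at 34.8 and 27.1 CPM against 105 and 89.0 CPM.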

How the data were processed

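Both vehicle libraries were single-cell 3′ libraries of HepaRG cells. The deposited values are counts of UMIs per gene and barcode, not normalized, written by Cell Ranger 7.0.0 per the file headers; the submitters' processing notes also name STAR and GRCh38. The labels do not say how doublets, free RNA or strand were treated; no doublet caller was run and free RNA was not removed. Gene coordinates came from GENCODE 29, which matched 34616 of 36601 gene IDs (94.6%), and promoters from RefSeq.

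UMIs were summed per library and group, scaled to CPM, and compared as log2((CPM + 1)/(CPM + 1)) per library, with the mean ± SD over 2 libraries. Counts used 1.5-fold in the same direction in both libraries and a mean of at least 5 CPM. Genes that chose the groups were left out of the counts: the 7 of the rule, PCNA and MCM2 to MCM7 against replication-high cells, and CCNB1 in the split. For shares of cells, each cell was thinned to 4000 UMIs. Intervals are exact binomial (95%) and cover counting error only.

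The members, lists and comparisons were chosen with earlier results of these data known. From each list, genes past the fold with the highest CPM, or against the list, were named, together with the 12 largest and 12 smallest ratios at 20 CPM or more. Marker kinases, DDIT3, HSPA1A, CDKN1A and genes of the split were named after their values were seen. Alternatives covered TMM (edgeR 4.0.16) and DESeq2 1.42.0 size factors, the CPM minimum, the fold, the pseudocount, thinning, the share chosen, the deepest 4% of cells, measuring on other UMIs than those used to choose, albumin-high cells and each library alone. Python 3.11.15, numpy 2.4.6, pandas 2.3.3, scipy 1.17.1, matplotlib 3.10.9 and R 4.3.3 were used.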

Additional observations from a re-analysis of the deposited data

How the results depend on the processing

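Against low cells, the 1044 higher and 1284 lower genes became 494 and 481 at a 2-fold threshold, and the lower genes 1954 with no CPM minimum. The other alternatives left both counts within 1.5 times, with 1068 and 1222 under TMM scaling and 1153 and 1131 under DESeq2 size factors. Against dividing mesenchymal cells, thinning to 4000 UMIs gave 508 higher and 406 lower genes. For the CCNB1 split, thinning gave 218 higher and 472 lower genes, and splitting on some UMIs while measuring on the others gave 71 higher genes. With each library alone, a gene need pass in only that library, so counts were larger by construction: 1202 to 1240 higher and 1618 to 1625 lower against low cells, 955 to 959 and 1252 to 1293 against replication-high cells, 620.0 to 751 and 553 to 654 against dividing mesenchymal cells, and 210.0 to 298 and 680.0 to 691 in the split. The share of cells chosen ran from 9.6036% to 9.6991%. Of 4851 log2 ratios of 441 named genes over 11 alternatives, 1525 moved by more than the SD between libraries and 1 reversed among called genes: APOA1, at 0.0315 with albumin-high cells left out. CDK6 did not pass under TMM scaling, DESeq2 size factors, the 2-fold threshold, a pseudocount of 5 CPM, the top 16% of cells, or measuring on other UMIs than those that chose the cells. No paired analysis was possible because the samples form 1 group, so replicate numbers pair no samples. The ratios between cell groups were taken within each library and so are already paired by library.

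With 2 libraries of the same biological replicate label, spread between cultures could not be measured. Groups chosen by transcript levels differ in those transcripts by choice, and genes that vary with them carry the same choice. Depth differed between groups and libraries. Ratios of genes with few UMIs in a group, such as PIF1 in low cells, depend on the pseudocount.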
